A study of Mus musculus with 8 samples.

Results

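Melanin is made in melanosomes, organelles related to lysosomes that pigment cells build and fill in steps. Tyrosinase starts the pathway by oxidizing tyrosine, its relatives Tyrp1 and Dct act on later intermediates, Pmel forms the fibrils on which the pigment is laid down, and ion and solute transporters set the conditions inside the organelle. In the eye, melanin is made by the retinal pigment epithelium (RPE), a single cell layer that faces the photoreceptor outer segments, and by neural crest melanocytes of the choroid and iris, whereas photoreceptor cells themselves are not pigmented. The genes described here are 10 melanin and melanosome genes chosen by name from this known biology. Earlier results of these data were known when they were chosen. They are the enzymes Tyr, Tyrp1 and Dct, the melanosome proteins Pmel and Mlana, the transporters Slc45a2, Oca2 and Slc24a5, the receptor Gpr143 and the transcription factor Mitf. All 10 had probes on the array, 16 probes in all, out of 22911 genes that could be named.

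Photoreceptor cells were isolated from the retina of C57BL/6 mice at postnatal day 8 and their RNA was measured on single-color SurePrint G3 mouse microarrays. The groups were 4 arrays of heterozygous Lpcat1 cells (HZ) and 4 of homozygous knockout cells (KO). Lpcat1 encodes an acyltransferase that makes dipalmitoyl phosphatidylcholine, and it is deleted in the whole body, so that any RPE or melanocyte in a KO eye lacks it as well. The HZ controls carry 1 deleted allele. The line came from C57BL6/N and was crossed to C57BL6/J to remove the rd8 allele of Crb1, and mice homozygous for rd8 were not used. Retinas were dissociated with trypsin, and cells were labelled with an antibody to CD73, a surface marker of photoreceptor precursors encoded by Nt5e, and held on magnetic beads. Whether an array holds 1 animal or several pooled ones is not given in the sources used here, and p-values therefore measure the spread between these arrays.

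All 10 genes had a lower mean on the KO than on the HZ arrays. Among the 6 genes well above background on all 8 arrays, the differences in normalized log2 signal ran from -1.79 for Pmel to -0.26 for Slc24a5, with a median of -0.99. The median was -1.29 over the 8 genes that could be tested and -1.49 over all 10, the last resting in part on signals near background and coming to -0.71 with another background correction (normexp). Over the 14848 tested genes it was 0.029. The enzymes Tyr (1.80-fold) and Dct (2.73-fold) and the melanosome proteins Pmel (3.47-fold) and Mlana (4.80-fold) passed the looser of the study's thresholds, as did the receptor Gpr143, which was well above background on 1 KO array only. Of all tested probes 0.813% were called lower in this way. The call held under 7 of 19 alternatives for Tyr, 11 for Dct and 6 for Pmel. For Mlana and Gpr143 it held under 11 and 12 of 18. With normexp Tyr differed by -0.45 and was not called. Tyrp1 and Mitf passed when arrays of the same replicate number were paired, Slc24a5 did not, and Slc45a2 and Oca2 were too close to background to test. The 10 genes also varied together between arrays of the same genotype, and the HZ arrays spread so widely that most genes overlapped between the genotypes. All 10 were lower in KO in each of the 4 pairs of arrays with the same number, but genes that vary together are not separate observations.

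The signal of each spot, which the scanner software gives with the background subtracted, was taken as log2 and shifted by the 75th percentile of its array, so that 0 is the level of that percentile. The percentile itself lay between 882 and 1024 intensity units, and the software marked 59.5% to 64.6% of an array's probes as well above background. Each gene is given by its brightest probe. The 34303 probes that had this mark on at least 4 arrays were tested with limma, with Benjamini-Hochberg adjustment over all of them, and differences are KO minus HZ. The looser thresholds were a fold over 1.5 with an adjusted p under 0.5, which allows many false calls, and the stricter ones a fold over 1.2 with an adjusted p under 0.05. HZ array 4 had 458 spots marked non-uniform against 2 to 25 on the others. The KO arrays lay in slide row 1 and the HZ arrays in slide row 2, so that row and genotype cannot be told apart, and the replicate number is the slide column. The Lpcat1 probe did not separate the genotypes, with a difference of -0.037 (standard error, SE, 0.11, limma adjusted p = 0.931), and whether it lies in the deleted part was not tested, so the directions below rest on the labels. The sorting marker was bright on every array, with a normalized log2 signal of Nt5e between 4.05 and 4.39.

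Six-base sites read as CATGTG are bound by MITF, the factor that drives pigment genes, and the longer TCATGTG is the M-box of the tyrosinase family. RefSeq promoter windows, from 250 bases before to 50 after a transcript start in GRCm38.p6, were at hand for 6 of the 10 genes (Tyr, Tyrp1, Dct, Oca2, Slc24a5 and Mitf, the last with 3 windows). Shown are those of the tyrosinase family, the enzymes of the pathway, and that of Slc24a5, which carries the same site and had the smallest difference of the 10. Each is written 5′ to 3′ on the strand of the gene, and capitals mark TCATGTG or its reverse complement. Tyr lies at chr7:87493463-87493762 on the minus strand, Tyrp1 at chr4:80833963-80834262 on the plus strand, Dct at chr14:118052197-118052496 on the minus strand and Slc24a5 at chr2:125067877-125068176 on the plus strand.
Tyr: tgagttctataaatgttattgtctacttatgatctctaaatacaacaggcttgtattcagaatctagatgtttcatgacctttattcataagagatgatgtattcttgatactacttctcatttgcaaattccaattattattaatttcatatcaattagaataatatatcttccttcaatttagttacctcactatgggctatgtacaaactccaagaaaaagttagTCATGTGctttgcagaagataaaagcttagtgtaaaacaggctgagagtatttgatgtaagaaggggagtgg
Tyrp1: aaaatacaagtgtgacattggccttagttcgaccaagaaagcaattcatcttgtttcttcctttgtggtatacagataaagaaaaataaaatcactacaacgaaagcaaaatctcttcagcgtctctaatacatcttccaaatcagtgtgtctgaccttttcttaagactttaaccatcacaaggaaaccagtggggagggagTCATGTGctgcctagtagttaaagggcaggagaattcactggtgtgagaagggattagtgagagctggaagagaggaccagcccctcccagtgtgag
Dct: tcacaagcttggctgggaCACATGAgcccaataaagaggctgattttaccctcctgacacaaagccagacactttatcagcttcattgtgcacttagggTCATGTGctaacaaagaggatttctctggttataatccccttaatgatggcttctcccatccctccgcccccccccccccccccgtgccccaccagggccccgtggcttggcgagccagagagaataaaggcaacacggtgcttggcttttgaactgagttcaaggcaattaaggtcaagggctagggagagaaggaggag
Slc24a5: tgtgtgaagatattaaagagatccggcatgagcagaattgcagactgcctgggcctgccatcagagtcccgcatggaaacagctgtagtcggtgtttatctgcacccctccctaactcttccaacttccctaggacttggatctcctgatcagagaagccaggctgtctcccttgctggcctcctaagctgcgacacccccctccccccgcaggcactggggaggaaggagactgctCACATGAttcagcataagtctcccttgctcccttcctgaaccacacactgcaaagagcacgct

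Positions are counted from the start, with negative numbers before it, and give the first base of a match. The M-box is at -22 in Tyr and at -47 in Tyrp1. Dct holds TCATGTG at -151 and its reverse complement at -232, and Slc24a5 holds the reverse complement at -13. Over all 32851 RefSeq windows of the same length, on both strands, TCATGTG was present in 3.77% and CATGTG, which every TCATGTG contains, in 14.2%. The Oca2 window (chr7:56239509-56239808, plus strand) held the shorter CATGTG alone, on the opposite strand at -186. Neither CATGTG nor the related CACGTG, present in 7.15% of windows, was found in the 3 Mitf windows. TAATCC, read by OTX2, a factor shared by photoreceptors and the RPE, was present in the Tyrp1 and Dct windows, in 1 Mitf window and in 7.06% of all windows. These are matches of letters, and binding was not measured.

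Melanin synthesis itself rests on Tyr, the rate-limiting enzyme. Its normalized log2 signal was -2.95, -4.17, -3.65 and -3.16 on HZ arrays 1 to 4 and -4.22, -4.49, -4.12 and -4.48 on KO arrays 1 to 4. The KO arrays lay close together, and HZ array 2 lay among them, below KO array 3. The mean went from -3.48 ± 0.55 (SD, n = 4) to -4.33 ± 0.19 (SD, n = 4), a difference of -0.85 (SE 0.26, 95% interval -1.44 to -0.26, limma adjusted p = 0.482) that passed the looser thresholds. A second Tyr probe, not well above background on any array, differed by -0.43.

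Tyrp1 stabilizes tyrosinase and acts on a late indole intermediate. Its signal was 1.42, -0.27, 0.72 and 0.68 on the HZ arrays and -0.14, -0.32, -0.26 and -1.27 on the KO arrays. HZ array 1 was highest, KO array 4 stood apart at the bottom, and HZ array 2 again lay inside the KO range. The difference of -1.14 (SE 0.38, 95% interval -2.01 to -0.27), or 2.20-fold, missed the looser thresholds (limma adjusted p = 0.516) and passed them with the replicate number as a block (limma adjusted p = 0.368).

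Dct, dopachrome tautomerase, read 4.10, 2.36, 3.34 and 3.15 on the HZ arrays and 2.36, 1.67, 2.15 and 0.97 on the KO arrays. Every KO array was below every HZ array, but HZ array 2 and KO array 1 were separated by only 0.00091. The mean went from 3.24 ± 0.71 (SD, n = 4) to 1.79 ± 0.62 (SD, n = 4), and the difference of -1.45 (SE 0.41, 95% interval -2.39 to -0.51) passed the looser thresholds (limma adjusted p = 0.448). A second Dct probe passed as well, with a difference of -1.05 (SE 0.28, limma adjusted p = 0.434) and no overlap between the genotypes.

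**Figure D1:**
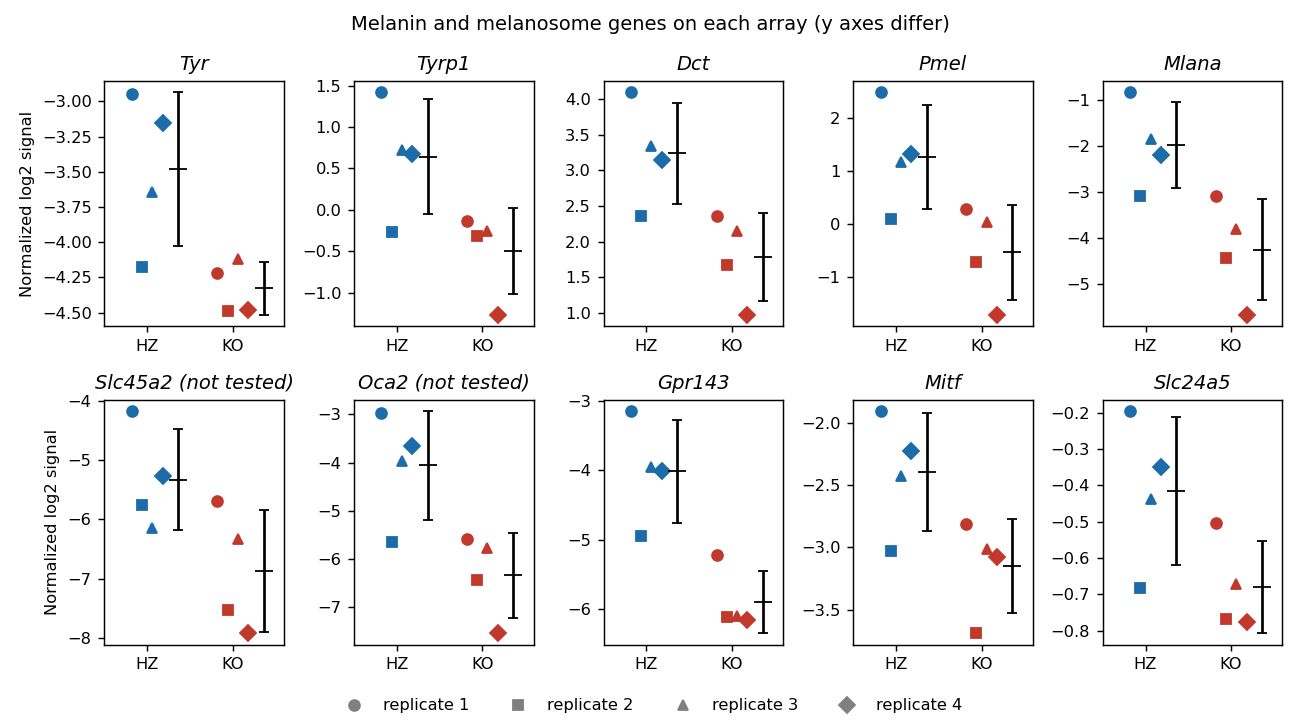
Normalized log2 signal (y axis, log2 signal minus the array's 75th percentile, a separate scale in each panel) of the 10 genes on the 4 HZ and 4 KO arrays, with the symbol shape giving the replicate number and the bars the mean ± SD. HZ 1 is the highest HZ array in 10 of 10 panels and HZ 2 the lowest in 9 of 10, where it comes close to the KO arrays or lies among them.

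Pmel and Mlana are proteins of the organelle itself. Pmel, the fibril protein of the early melanosome, read 2.48, 0.092, 1.16 and 1.32 on the HZ arrays and 0.28, -0.72, 0.030 and -1.71 on the KO arrays. KO array 1 was above HZ array 2, and the other 3 KO arrays were below all HZ arrays. The difference of -1.79 (SE 0.57, 95% interval -3.11 to -0.48) passed the looser thresholds narrowly, with a limma adjusted p of 0.499.

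Mlana, also called MART-1, is a small membrane protein that works with Pmel in melanosome maturation. Its signal was -0.84, -3.09, -1.84 and -2.19 on the HZ arrays and -3.08, -4.44, -3.81 and -5.67 on the KO arrays. HZ array 2 and KO array 1 met, with KO array 1 slightly higher, and otherwise the genotypes were apart. Of the 8 tested members it had the largest difference, -2.26 (SE 0.62, 95% interval -3.69 to -0.83, limma adjusted p = 0.441). The probe was well above background on 4 HZ and 3 KO arrays.

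Gpr143, the melanosomal receptor whose loss causes ocular albinism, read -3.15, -4.95, -3.96 and -4.01 on the HZ arrays and -5.22, -6.10, -6.09 and -6.16 on the KO arrays. The genotypes did not overlap, and KO array 1 stood above the other 3, which were nearly equal. The difference of -1.88 (SE 0.38, 95% interval -2.74 to -1.01) had the smallest adjusted p of the tested members, 0.334 by limma. The probe was well above background on 4 HZ arrays but 1 KO array, so that it was tested only because of its level on the HZ arrays and its difference is taken against values near background, and a second, dimmer probe that was not tested differed by -0.33.

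Of the 3 transporters, Oca2 and Slc45a2 were near background. Oca2, the melanosomal chloride channel altered in pink-eyed dilution, read -2.96, -5.65, -3.96 and -3.67 on the HZ arrays and -5.60, -6.44, -5.78 and -7.56 on the KO arrays. Its probe was well above background on 3 HZ arrays, all but HZ array 2, and on 0 KO arrays, so it was not tested. KO array 1 was slightly above HZ array 2, and the other KO arrays were below all HZ arrays. The means differed by -2.28, and by -2.15 for its second probe, against KO values near background. With the normexp correction the difference of the first probe was -0.74, so no fold is given.

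Slc45a2, a transporter that helps set melanosomal pH and is altered in underwhite mice, read -4.17, -5.75, -6.14 and -5.27 on the HZ arrays and -5.69, -7.52, -6.34 and -7.91 on the KO arrays. It was well above background on HZ array 1 alone and was not tested, and no fold is given. KO array 1 overlapped the HZ range, above HZ arrays 2 and 3.

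Slc24a5, a potassium-dependent sodium/calcium exchanger of pigment cells, read -0.19, -0.68, -0.44 and -0.35 on the HZ arrays and -0.50, -0.77, -0.67 and -0.78 on the KO arrays. KO arrays 1 and 3 lay above HZ array 2, and the difference of -0.26 (SE 0.12, 95% interval -0.55 to 0.019, limma adjusted p = 0.627) missed the thresholds.

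Mitf, the transcription factor of pigment cell identity, read -1.90, -3.03, -2.43 and -2.23 on the HZ arrays and -2.81, -3.69, -3.01 and -3.08 on the KO arrays. HZ array 2 lay among the KO arrays, below KO arrays 1 and 3. The difference of -0.75 (SE 0.27, 95% interval -1.37 to -0.13), or 1.68-fold, missed the looser thresholds (limma adjusted p = 0.544) and passed them with the replicate block (limma adjusted p = 0.308). Its other 2 probes differed by -0.49 (limma adjusted p = 0.799) and -0.68 (limma adjusted p = 0.718).

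In all, 5 of the 10 genes were called lower at the looser thresholds and 0 higher, where 0.813% of the tested probes were called lower and 0.227% higher. Gpr143 is counted among the 5, although only its level on the HZ arrays made it testable. At the stricter thresholds 0 members and 0% of the probes were called by limma, while 7 members were lower with an unadjusted p under 0.05, as were 3.48% of the probes tested. The methods' t-test gave the members adjusted p-values no smaller than 0.351. A lower mean was found for 16 of 16 member probes, against 49.5% of the probes tested, and the genotypes did not overlap for 2 of the 10 genes, Dct and Gpr143, against 2.14% of the probes. Dct was apart by only 0.00091, and Gpr143 was well above background on 1 KO array. The range of the 4 HZ arrays exceeded the size of the difference for 8 of the 10. The number of members called depended on single arrays: 0 were called without HZ array 1, HZ array 3, KO array 2, KO array 3 or KO array 4, 1 without HZ array 4, 2 without KO array 1 and 7 without HZ array 2. The count over all probes moved with it: from 279 called lower to 1 without HZ array 1, 0 without HZ array 3, KO array 3 or KO array 4, 42 without KO array 2, 147 without HZ array 4, 145 without KO array 1 and 1361 without HZ array 2. With the replicate number as a block 7 members and 913 probes were called.

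**Figure D2:**
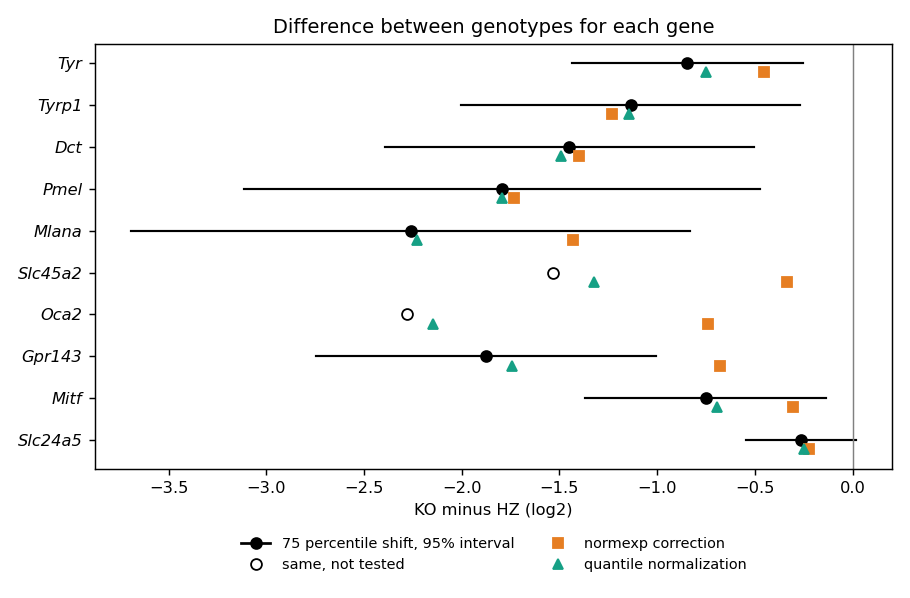
KO minus HZ (x axis, log2) for each of the 10 genes, as filled circles with 95% intervals from limma or open circles where the gene was not tested, beside the same difference after normexp background correction (squares) and quantile normalization (triangles). Every point lies below 0, and normexp brings the dim genes Oca2, Slc45a2 and Gpr143 to -0.74, -0.34 and -0.68.

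The sizes of the differences depended on the background correction for the dim genes. With the normexp correction, which keeps dim spots from spreading on the log scale, Oca2 differed by -0.74, Gpr143 by -0.68, Tyr by -0.45, Mitf by -0.31 and Slc45a2 by -0.34. Mlana differed by -1.43. The genes well clear of background moved little, with Tyrp1 at -1.23, Dct at -1.40 and Pmel at -1.73. Many alternatives change the test and leave the difference as it was. Of the 123 values of the 10 differences that an alternative did move, 123 were negative.

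Between arrays of the same genotype the members moved as a set. HZ array 1 was the highest HZ array for 10 of 10 genes and HZ array 2 the lowest for 9, with Slc45a2 lowest on HZ array 3 instead. Among the KO arrays, KO array 1 was highest for 9 genes and KO array 4 lowest for 8, Tyr and Mitf being lowest on KO array 2 and Tyr highest on KO array 3. When arrays of the same replicate number were set against each other, all 10 genes were lower in KO for each of the 4 numbers. The share of all tested probes lower in this way was not computed. As the 10 genes moved together, they are not separate observations. The median of these differences over the 10 genes was -1.65 for number 1, -0.74 for number 2, -1.06 for number 3 and -2.16 for number 4.

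After the group mean was taken from each gene, the deviations of the 10 genes over the 8 arrays correlated with a median Pearson's r of 0.853 over the 45 pairs, from 0.614 for Tyrp1 and Mitf to 0.990 for Dct and Pmel, and the median Spearman correlation was 0.833. Single tested probes were also correlated with the mean of the tested members, a measure unlike the pairwise one. Its median was -0.0555, and 1.72% of the probes had an r over 0.8. The points share the arrays and the shift by the 75th percentile, and these correlations are descriptions. Against the mean of the other tested members, Dct (r = 0.980), Pmel (0.977) and Oca2 (0.974) lay closest, and Mitf (0.753), Slc45a2 (0.827) and Tyr (0.840) farthest. Tyrp1 had an r of 0.942, so that of the 3 enzymes of the tyrosinase family Tyr was the one that kept least to the shared profile.

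The genes kept to the shared profile on different scales. For a deviation of 1 in the mean of the others, on the log2 scale, Oca2 deviated by 1.64, Mlana by 1.61 and Pmel by 1.54, Dct by 1.03, Tyrp1 by 0.89, Tyr by 0.52, Mitf by 0.48 and Slc24a5 by 0.23. Slc24a5 correlated closely all the same (r = 0.954), with a within-group SD of 0.170 against 1.02 for Mlana. Its small difference between the genotypes thus stood beside the smallest spread within them of the 10 genes.

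**Figure D3:**
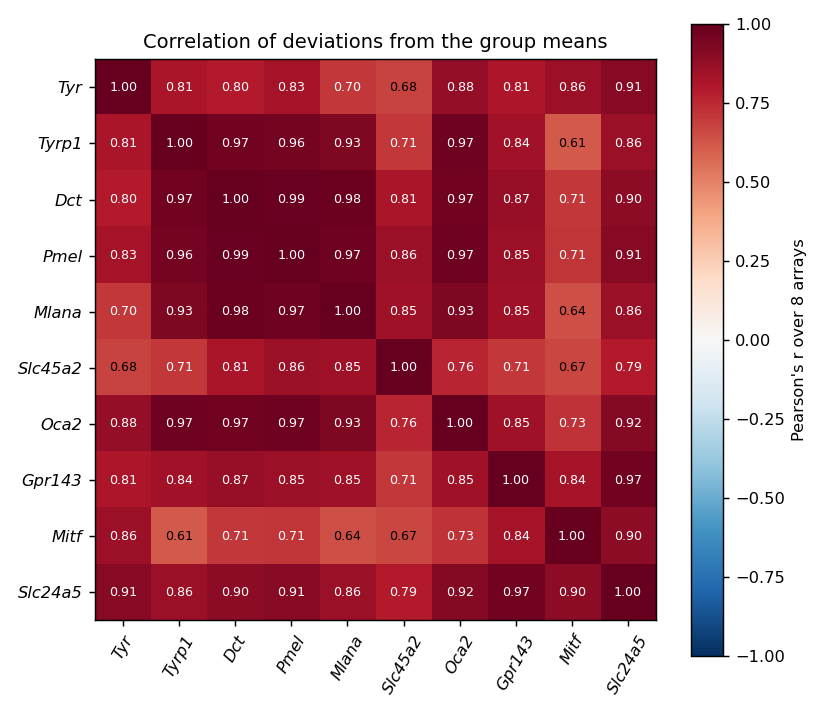
Pearson's r between the deviations of each pair of the 10 genes from their group means over 8 arrays (color scale from -1 to 1, values printed in the cells). All 45 pairs are above 0, Dct, Pmel, Mlana, Tyrp1 and Oca2 form the block with the highest values, and Mitf and Slc45a2 hold the lowest.

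Among the other tested genes, the 10 whose deviations were most like the mean of the tested members had an r between 0.968 and 0.979. The first was Tspan10 (r = 0.979), a tetraspanin of pigment cells, with a difference of -1.17 (SE 0.32, limma adjusted p = 0.441). Trf, the iron carrier transferrin, and Car12, a carbonic anhydrase, differed by -1.25 and -2.02. Farther down were genes of the extracellular matrix and its turnover: the surface protease Fap (-2.39), the protease inhibitor Timp3 (-1.63), the fibrillin Fbn1 (-1.26), the collagen Col8a1 (-2.33) and the proteoglycan Ogn (-1.98). Of the 10 genes 9 passed the looser thresholds, all lower in KO, where 0.813% of the tested probes were called lower. For these 5 genes of the matrix the genotypes did not overlap, against 2.14% of the probes with every KO array below every HZ array. Car12 and Ogn were well above background on 2 KO arrays only, so that their differences are taken in part against values near background. Wwp1, a ubiquitin ligase and the last of the 10 (r = 0.968), was the one that did not pass, with a difference between the genotypes of 0.055 (SE 0.078, limma adjusted p = 0.849). Without the 2 arrays farthest from the median, HZ arrays 1 and 2, the r of these 10 genes lay between 0.918 and 0.990. As the genes were chosen by their r over all arrays, these values are partly set by that choice. They are no separate check of whether the likeness holds without HZ arrays 1 and 2.

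The wider machinery of the melanosome had a median difference near 0. Of 35 genes of melanosome biogenesis and transport, which build the organelle from endosomes and carry it along the cytoskeleton, 32 were tested. The mean was lower in KO for 12 and higher for 20, and the median was 0.083. Where 0.813% of the tested probes were called lower and 0.227% higher, 4 of these genes were called lower and 0 higher. The 4 were Bace2, a protease that cleaves Pmel, Sytl2, a Rab27 effector, Lrmda, a melanocyte differentiation gene, and Tspan10. Bace2 read -0.51, -2.39, -1.26 and -1.29 on the HZ arrays and -2.54, -3.30, -2.84 and -4.91 on the KO arrays, a difference of -2.04 (SE 0.57, limma adjusted p = 0.445) without overlap between the genotypes. Sytl2 differed by -1.95 (SE 0.46, limma adjusted p = 0.386) and Lrmda by -1.38 (SE 0.33, limma adjusted p = 0.394), both without overlap, and they were well above background on 0 and 1 KO arrays, so that their level on the HZ arrays alone made them testable, and their differences are taken against values near background. The melanosomal glycoprotein Gpnmb, well above background on 2 KO arrays, differed by -2.21 (SE 0.82) and missed the thresholds (limma adjusted p = 0.562).

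Regulators of pigment cells other than Mitf did not move one way. Of 16 listed genes 12 were tested, with 6 lower and 6 higher and a median of -0.049. Among them 1 was called lower and 0 higher, against 0.813% and 0.227% of the tested probes. The called gene was Sox10, a neural crest factor, at -0.92 (SE 0.27, limma adjusted p = 0.470), and it was well above background on 4 HZ and 2 KO arrays. Kitl, the ligand of the melanocyte receptor Kit, was higher in KO by 1.35 (SE 0.53, limma adjusted p = 0.586) without passing the thresholds, and was well above background on 2 HZ and 4 KO arrays. The factors Sox9 (-0.48) and Pax6 (-0.38), which are also made by other retinal cells, did not pass either, with limma adjusted p-values of 0.752 and 0.858.

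**Figure D4:**
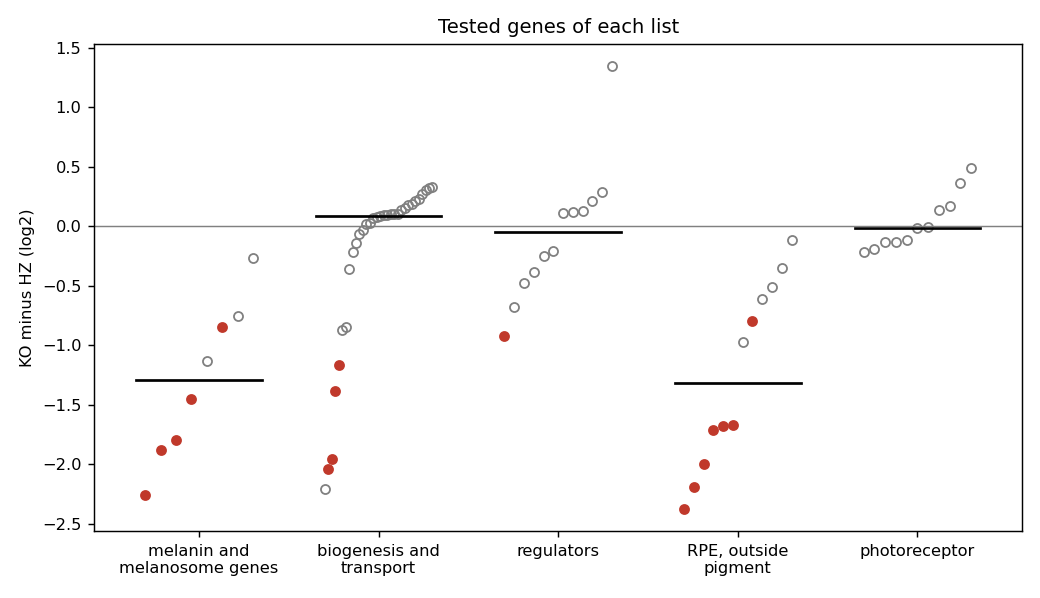
KO minus HZ (y axis, log2) of each tested gene of 5 lists, ordered by size within a list, with filled circles for genes past the looser thresholds and a bar at the median. The melanin and melanosome genes and the RPE genes outside pigment have low medians (-1.29 and -1.32), while those of the biogenesis, regulator and photoreceptor lists are 0.083, -0.049 and -0.015.

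The samples were sorted for photoreceptors, and genes of other cells that make melanin were therefore set beside the members. Of 13 RPE genes outside pigment, 12 were tested and 12 were lower in KO, against 49.5% of the tested probes. Of these genes 7 were called lower, against 0.813% of the probes. The median difference of the list was -1.32, with a range from -2.38 to -0.12. Like the members, this list was chosen with earlier results of these data known. Rpe65, the isomerase of the visual cycle, read -0.55, -2.18, -1.06 and -1.21 on the HZ arrays and -2.65, -3.83, -3.005 and -5.03 on the KO arrays, a difference of -2.38 (SE 0.54). Every KO array was below every HZ array, and HZ array 2 and KO array 4 were the lowest of their groups, as for most members. Ttr, which carries thyroid hormone and retinol and is abundant in the RPE, differed by -2.001 (SE 0.55, limma adjusted p = 0.441), also without overlap. As a mean of deviations from each gene's mean over the 8 arrays, the RPE list lay between 0.24 and 0.94 on the HZ arrays and between -1.28 and -0.24 on the KO arrays. The deviations from the group means of this list and of the tested members correlated with a Pearson's r of 0.899 and a Spearman correlation of 0.881 over 8 arrays, and with r = 0.938 without HZ arrays 1 and 2. In bulk RNA, fewer cells of a type and less RNA per cell cannot be told apart. The part of RPE RNA in the differences of the members was not tested.

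The 11 photoreceptor genes had 0 called, a median of -0.015 and a mean deviation between -0.13 and 0.083 on the HZ arrays and between -0.061 and 0.13 on the KO arrays. Of 5 genes of neural crest melanocytes, 2 were lower and 3 higher in KO, with a median of 0.11. Sox10 was the called one, the receptor Kit differed by -0.25, and the melanocortin receptor Mc1r by 0.11. Microglia genes were higher on the KO arrays for 6 of 6, with a median of 0.83 and 1 called, where 0.227% of the tested probes were called higher. Their mean deviation lay between -0.93 and 0.27 on the HZ arrays and between -0.055 and 0.78 on the KO arrays. The called gene, Tmem119, was well above background on 1 HZ and 3 KO arrays. It was testable only with its level on the KO arrays, and its difference is taken against HZ values near background. P2ry12 was well above background on 2 HZ and 2 KO arrays. Of the tested bipolar, Müller glia, vascular and stroma genes, 4, 4, 2 and 2 in number, 0 were called, with median differences of -0.26, -0.079, -0.40 and 0.11. Only 2 of 5 vascular genes (Kdr at -0.79 and Pecam1 at -0.0054) and 2 of 5 stroma genes (Pdgfra at 0.55 and Col1a2 at -0.32) were tested. The last 2 medians therefore say little about these cells. The tested red blood cell gene, the hemoglobin chain Hba-a1, was higher in KO by 1.51 (limma adjusted p = 0.581) and missed the thresholds. The part of these cells in the members' differences was not tested.

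**Figure D5:**
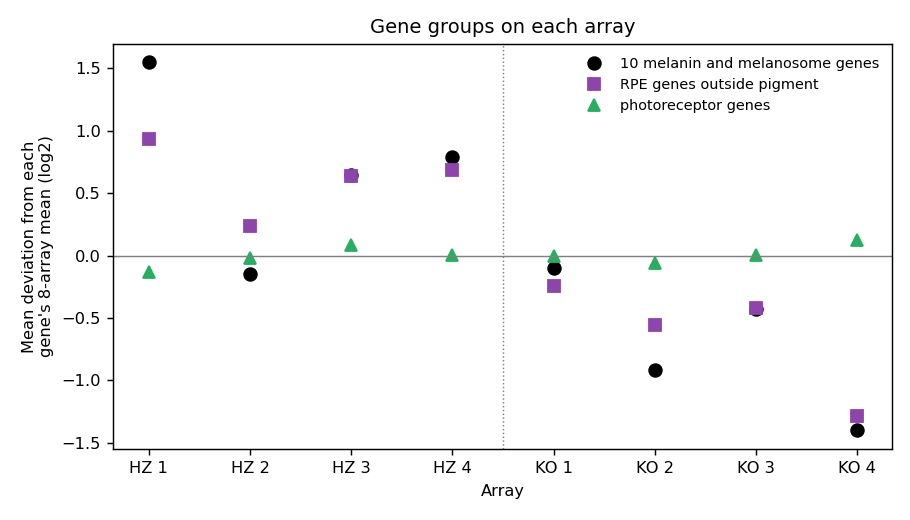
Mean deviation of each gene list from the 8-array mean of its genes (y axis, log2) on each array (x axis) for the 10 melanin and melanosome genes, the RPE genes outside pigment and the photoreceptor genes. The first list runs from 1.55 on HZ 1 to -1.40 on KO 4 with the RPE list beside it on most arrays, and the photoreceptor list stays between -0.13 and 0.13.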

How the data were processed

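RNA of CD73-bound photoreceptor cells from 8 samples, 4 HZ and 4 KO by their labels, was hybridized to single-color arrays. Per the file headers, the authors deposited spot intensities that Agilent Feature Extraction 10.7.1.1 had background-subtracted. They also deposited log2 values from GeneSpring, shifted to the 75 percentile, a table that is centred on the median of each probe over the arrays. Set against the centred scanner values its columns had r of 0.998 or more, in the same direction and on the log2 scale, and their medians, for HZ 1 to 4 and KO 1 to 4, were -0.065, -0.012, -0.027, 0.20, -0.010, 0.060, -0.019 and 0.033.

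Each array's 75th percentile over 59305 spots, controls excepted, was subtracted from the log2 intensities. Spots marked as outliers were dropped, spots of a probe were averaged, and probes were named through RefSeq accessions (GRCm38.p6, 32994 of 56605 matched). A probe with that software's mark for signal well above background on 4 or more arrays, and with at least 3 values in each group, was tested, two-sided, with limma 3.58.1 (lmFit, eBayes) under R 4.3.3, with files read by version 1.17.8 of data.table. The comparison was tested on simulated data, drawn for each probe alone, with 200 of 34008 probes changed by 1.5 on the log2 scale. The looser thresholds recovered 90.5% of these, and 37.8% of the calls were false. The stricter ones recovered 74.5%, with 2.61% of the calls false. The members vary together between arrays, which the simulation leaves out. Python 3.11.15 and matplotlib 3.10.9 read the promoters and drew the plots. The number of arrays limits the precision. 0 pairs of arrays were identical, and r between arrays lay between 0.974 and 0.992.

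The methods give the thresholds as alternatives, so both pairs are used. Named are the 10 members, the 5 tested genes with the largest difference in the biogenesis and regulator lists together with those called, the 10 genes most like the members in their deviations, and Rpe65, Ttr, Nt5e and Lpcat1. Some genes that this rule takes in are not reported here. Kit, Mc1r and the groups beside them were listed as cell type markers. The members and lists were chosen with earlier results of these data known.

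Whether the replicate number pairs the arrays was checked on deviations from group means. Arrays of the same number gave r from 0.172 to 0.337, over 0.1 for 4 of 4, others gave -0.337 to 0.117, and each array matched its own number best in 4 of 4 pairs. Arrays of the same number therefore share some variation. The number is also the slide column, so that a pairing of the samples and a position on the slide cannot be told apart. The main test leaves the number out, and the replicate block is given as an alternative.

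Alternatives were quantile normalization, a percentile taken over the probes that all arrays marked as well above background, a stricter filter on dim probes (8 arrays) or none, outlier spots kept, the mean of a gene's probes, the methods' t-test, eBayes with trend and robust settings, the replicate block, the authors' log2 values and each array left out. Normexp correction (offset 50) used the median signal of a spot, a choice made after seeing the data.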

Additional observations from a re-analysis of the deposited data

Results flagged for a closer look

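In 20 groups of 4 values, 10 genes on the HZ and on the KO arrays, the gap between an extreme array and its neighbor was large against the range of the group in 2, where chance flags about 1 in 20 groups. Tyrp1 was at -1.267132 on KO array 4, and the other KO arrays lay between -0.32 and -0.14. Gpr143 was at -5.216284 on KO array 1, where the other KO arrays lay between -6.16 and -6.09, and that probe was well above background on 1 KO array.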

How the results depend on the processing

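Each of the 10 members kept a lower mean in KO under every alternative that gave it a value, and the calls did not hold as well. The stricter filter on dim probes gave no value for Mlana, Gpr143, Oca2 and Slc45a2. Of the members' differences, 46 values lost the call, 9 gained it and 2 without a test moved, and 123 of the 123 values that differed from the main one were negative. The 279 probes called lower became 178 with quantile normalization, 32 with no filter on dim probes, 913 with the replicate block and 0 to 1361 with an array left out. At the stricter thresholds the count of 0 became 2 with quantile normalization, 17 with normexp, 2 with the methods' t-test and 3 with trend and robust settings, and stayed 0 to 0 with an array left out. The 5 members called became 3 with quantile normalization, with the percentile over well-above probes and with the mean of a gene's probes, 0 with no filter, and 0 to 7 with an array left out. The 2 members without overlap became 1 with that percentile and with the stricter filter, 3 with normexp and with the authors' values, and 2 to 9 with an array left out, 9 without HZ array 2 and 6 without KO array 1. The median difference of -1.49 was -0.71 with normexp, and -1.78 to -1.16 with an array left out. Over the same settings the median correlation of 0.853 ranged from 0.784 to 0.918 and the median of the biogenesis list from 0.032 to 0.087. The filters change both the number of probes tested and the SE, which for Dct was 0.41, 0.43 with no filter and 0.40 with the stricter one. The cause of the changed counts was not tested for any alternative. With the stricter filter 5 members were called, Tyrp1 and Mitf among them, while Gpr143 and Mlana were not tested. With the replicate block 7 members were called, Tyrp1 and Mitf in addition, and no other call of a member changed. The signal over background limits Slc45a2, Oca2, Gpr143 and Mlana, which were near background on KO arrays. The differences of Tyr and Mitf also shrank with normexp, to -0.45 and -0.31.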
